A study of Mus musculus with 8 samples.

Results

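The mouse microRNAs (miRNAs) of the miR-297, miR-466, miR-467 and miR-669 families are a group of related short RNAs, many of them copies of one another, that are encoded largely within the gene Sfmbt2. Members were chosen by name: every mouse entry on the array whose name starts with miR-297, miR-466, miR-467 or miR-669 followed by a letter, a hyphen or nothing more. The rule gave 61 of the 1881 mouse miRNA entries, with 3 entries of miR-297, 23 of miR-466, 12 of miR-467 and 23 of miR-669. No measured value entered the rule, although it was set with earlier results of these data known.

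The study profiled miRNAs in the kidney after ischemia-reperfusion injury (IRI), in which the blood flow to a kidney is clamped and then released. Sham and IRI kidneys were compared on single-colour Agilent arrays, 4 of each group. All animals were male C57BL/6 mice aged 9 weeks, with no genetic change named in the labels. IRI animals lost the right kidney and had the left one clamped. The clamp stayed on for either 25 or 45 min, with tissue harvested after 12 or 24 h. The labels used here do not tie a clamp time or a harvest time to an array. Sham animals had a midline incision alone and kept both kidneys, so nephrectomy and ischemia cannot be told apart in this comparison. Sham arrays carry the replicate numbers 1, 2, 3 and 6, and IRI arrays 1, 2, 3 and 18. The labels do not say that each array holds a separate animal, so p-values measure the spread between these samples only, which may be technical. All 8 arrays lay on 1 slide, with sham arrays in one row and IRI arrays in the other, so slide row and group cannot be told apart.

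An miRNA is cut from a hairpin precursor whose left and right arms give a 5p and a 3p product, and it pairs with messenger RNAs mainly through its seed, bases 2 to 8. Sfmbt2 encodes a Polycomb group protein, is imprinted and paternally expressed in early mouse tissues, and carries in an intron a large rodent-specific miRNA cluster that is best known from the placenta and from embryonic stem cells. The cluster arose by repeated duplication, and its hairpins are rich in alternating U and G on one arm and in alternating A and C on the other. On the array, a DNA probe is written as the complement of its target, so a probe with alternating A and C reads an RNA with alternating U and G.

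The RefSeq gene table placed all gene copies of 51 of the 61 entries inside Sfmbt2 on chromosome 2. Both miR-466f arms have 3 of their 4 gene copies there and the other on chromosome 13. The other 8 entries lie elsewhere. Both miR-466i arms lie within Cdk13, miR-466q within Tnik, miR-467f within Fxr2, miR-669n within Slc30a7, miR-467g within Grk4 and miR-466k within Gm31419, while miR-466j overlaps no other gene in that table. These are overlaps of gene bounds, and exons and introns were not told apart.

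The sequences below show what the entries share and where they differ, because the values that follow divide along these letters. First come the longest probe sequences of the 13 members whose signal could be tested, with the longest stretch of strictly alternating letters in capitals. These 4 hold the 7 letters ACACACA.
miR-466i-5p: CACACACACACACACA
miR-669n: acacacatcCACACACAa
miR-466h-5p: tACACACAagcacatgcac
miR-466m-5p: atACACACAtgcacatgc

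The next 8 hold TGTGTGT, the same letters read on the opposite strand.
miR-466f-3p: gtgtgtaTGTGTGTGTG
miR-466h-3p: GTGTGTGTGTGcgt
miR-466i-3p: tagtgtgtaTGTGTGTGTG
miR-466q: acgtaTGTGTGTGTGTG
miR-467f: tgtagGTGTGTGTGTGT
miR-669c-3p: tttactTGTGTGTGTGTG
miR-669f-3p: atacGTGTGTGTGTatgt
miR-669p-3p: atacGTGTGTGTGTGTatg

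The last tested member holds neither set of 7 letters, although its probe alternates A and C over 7 letters that start with C.
miR-669l-5p: acatatacatgCACACAC

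Of the 61 members, 10 have a probe with ACACACA, 21 a probe with TGTGTGT and 30 neither. Below these are called the AC probes, the TG probes and the other probes. On the whole array, 19 of 1881 entries (1.01%) hold ACACACA and 21 (1.12%) hold TGTGTGT, and all 21 of the latter are members. The 4 tested AC probes share no stretch longer than 7 letters among all of them, and the 8 tested TG probes share 9. Pairs within the TG set share 10 to 17 letters, pairs within the AC set 7 to 9, and the 32 pairs across the sets at most 4.

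The array annotation, on build mm9, places the miR-466h-5p probe at chr2:10436532-10436549, the miR-669p-3p probe at chr2:10410799-10410817 as one of 2 places, and the miR-669l-5p probe at chr2:10390015-10390032 as one of 3. The longest miR-669n probe is placed there at chr2:10430951-10430967, and its array entry also lists the accession of miR-669c-5p. RefSeq has miR-669n on chromosome 3 (GRCm38.p6 chr3:115979905-115979924, plus strand), so that signal cannot be assigned to one of these miRNAs. In all, 12 of the 61 entries list more than 1 accession. The array gives no place for the probes of miR-466i-5p, miR-466m-5p and miR-466f-3p.

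RefSeq's table held the mature sequence of 7 of the 61 members, 4 of them tested. Those 4 are shown 5′ to 3′ with the seed in capitals, and their seeds all differ.
miR-669n: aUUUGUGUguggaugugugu
miR-466i-3p: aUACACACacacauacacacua
miR-466q: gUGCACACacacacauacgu
miR-467f: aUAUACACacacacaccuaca

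Of the tested miRNAs outside the families, 313 have a mature sequence in the table, and 0 of those shared a seed with these 4. In GRCm38.p6, miR-466i-3p lies at chr13:17747552-17747573 (plus strand), miR-466q at chr3:28419988-28420007 (plus strand) and miR-467f at chr11:69635419-69635439 (minus strand).

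Most members gave no detectable signal in kidney, as was true of most entries on the array, so low detection is not particular to these families. By the scanner software's detection call, 19 of 61 were seen on 1 or more arrays and 9 on all 8, against 478 and 317 of all 1881 entries. None of the 3 miR-297 entries was detected, against 8 of the 23 miR-466, 2 of the 12 miR-467 and 9 of the 23 miR-669 entries. The undetected members were 3 miR-297, 15 miR-466, 10 miR-467 and 14 miR-669 entries, of which 16 are 5p, 20 are 3p and 6 have no arm named. The highest scaled signal that any of the 42 undetected members reached on an array was 27.2 (miR-467b-3p). Scaled signal means the summed probe intensity of an entry after the arrays were put on one scale, in arbitrary units, and values under a floor of 17.3 were raised to it before logarithms were taken.

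Detection was also counted by the length of the repeat in the probe, a grouping chosen after the values were seen. All 9 members with a stretch of 10 or more alternating letters were detected and tested. Of the 25 with a stretch of 7 to 9, 7 were detected and 4 tested. Of the 27 with 6 or fewer, 3 were detected and 0 tested, so none of these could enter the limma fit. Length did not sort the members without exception: all 4 with a stretch of 9 (miR-466a-5p, miR-466p-5p, miR-467g and miR-669a-3-3p) were undetected, and miR-467c-5p, with a stretch of 4, was detected on 1 array.

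**Figure D1:**
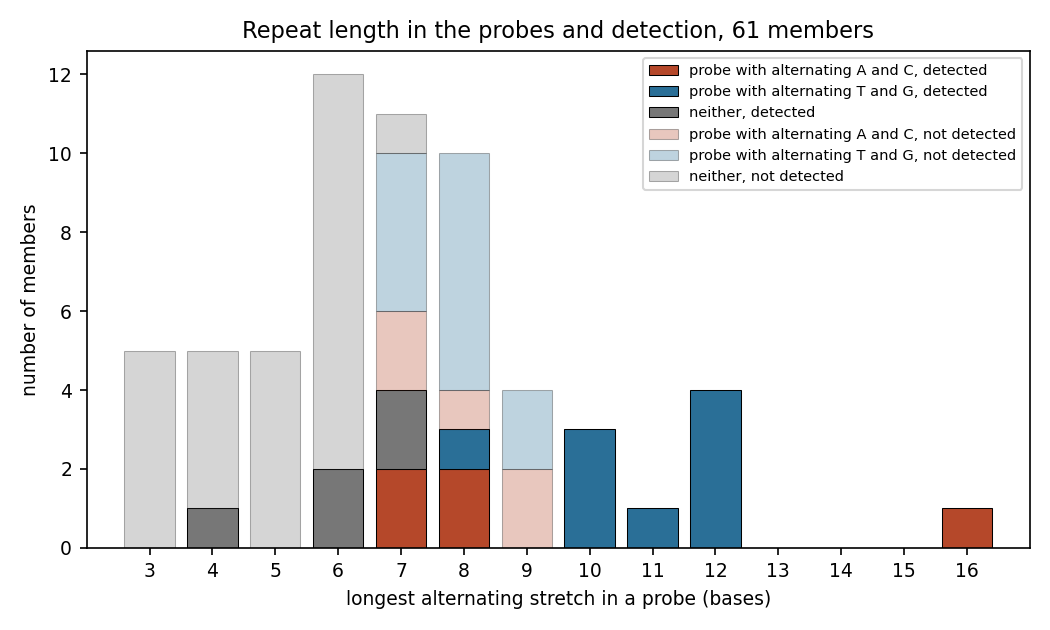
Number of members (vertical axis, 61 in all) by the longest alternating stretch in any of their probes in bases (horizontal axis). Colours give the probe set, with full colour for members detected on 1 or more arrays and pale colour for the rest. All 9 members at 10 bases or more are in full colour, all 4 at 9 bases are pale, and miR-466i-5p stands at 16 bases.

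More members were detected on IRI arrays. Sham arrays 1, 2, 3 and 6 had 11, 9, 9 and 10 members detected (9.75 ± 0.957, SD, n = 4), and IRI arrays 1, 2, 3 and 18 had 18, 16, 14 and 17 (16.2 ± 1.71, SD, n = 4). Every IRI array lay above every sham array. Over all miRNAs the counts were 358 ± 22.2 on sham and 421 ± 22.1 on IRI arrays (SD, n = 4 each). There too every IRI array (393 to 447) lay above every sham array (327 to 379). With the stricter rule that a probe be well above its background on 50% or more of its spots, the member counts were 8.5 ± 1.29 and 11.5 ± 1.73 (SD, n = 4 each), and the groups overlapped.

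A further 6 members were detected on some arrays but on all 4 of neither group, and were not tested. The TG probe of miR-466g gave 47.1, 16.3, 22.5 and 39 on sham arrays 1, 2, 3 and 6, and 23.6, 52.3, 25.6 and 46.6 on IRI arrays 1, 2, 3 and 18, with detection on 2 and 3 arrays. The other 5 are 5p entries detected on 0 sham arrays: miR-669e-5p and miR-669o-5p on 3 IRI arrays each, miR-669k-5p on 2, and miR-467c-5p and miR-669b-5p on 1 each. Their scaled signals ran from 0.772 to 12.6 on sham arrays and from 5.41 to 23.6 on IRI arrays, and each of them was highest on IRI array 1.

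The comparison of IRI with sham asks how injury changes the miRNA content of the kidney. Members seen on every array of a group, 13 in number, entered one limma fit with all other such miRNAs, 379 in all, and Benjamini-Hochberg adjusted p-values below 0.05 were called. Of the 13, 4 rose in IRI and 0 fell, with a median log2 change of 0.24. Of the 4, miR-466h-5p and miR-466m-5p were detected on 0 sham arrays and entered the fit only through the group where they are high. With the fit restricted to the 317 miRNAs detected on all 8 arrays, 2 of 9 members were higher, against 31 of the 317 higher and 139 lower. Over all 379 miRNAs, 46 (12.1%) were called higher and 139 (36.7%) lower, with a median of -0.11. No member was lower at an unadjusted p below 0.05 either, so that count is also 0. The balance of all calls hangs on the scaling: it was 53 higher and 1 lower with no scaling between arrays, where the median of all miRNAs moved to 0.17, and 72 and 2 with scaling to spike-ins, where it moved to 0.19. The log2 change was above 0 for 13 of 13 members and for 167 of all 379 miRNAs (44.1%), although 10 of the 13 turned below 0 with at least 1 other setting, all 10 of them with normexp background correction. That correction added an offset of 50 to each spot before probes were summed, so its small negative values are not read as falls. The 4 that rose all have AC probes, and all 8 tested TG members and the one with neither set of letters missed the threshold. That last one, miR-669l-5p, also alternates A and C over 7 letters, and only their start with C keeps it out of the AC set. With the floor at 1 it was called higher (log2 change 1.20, limma adjusted p 0.00865). It was also called higher with the scanner software's total gene signal and in the authors' deposited table. This split by letters therefore depends on the floor and on the value used for each miRNA.

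**Figure D2:**
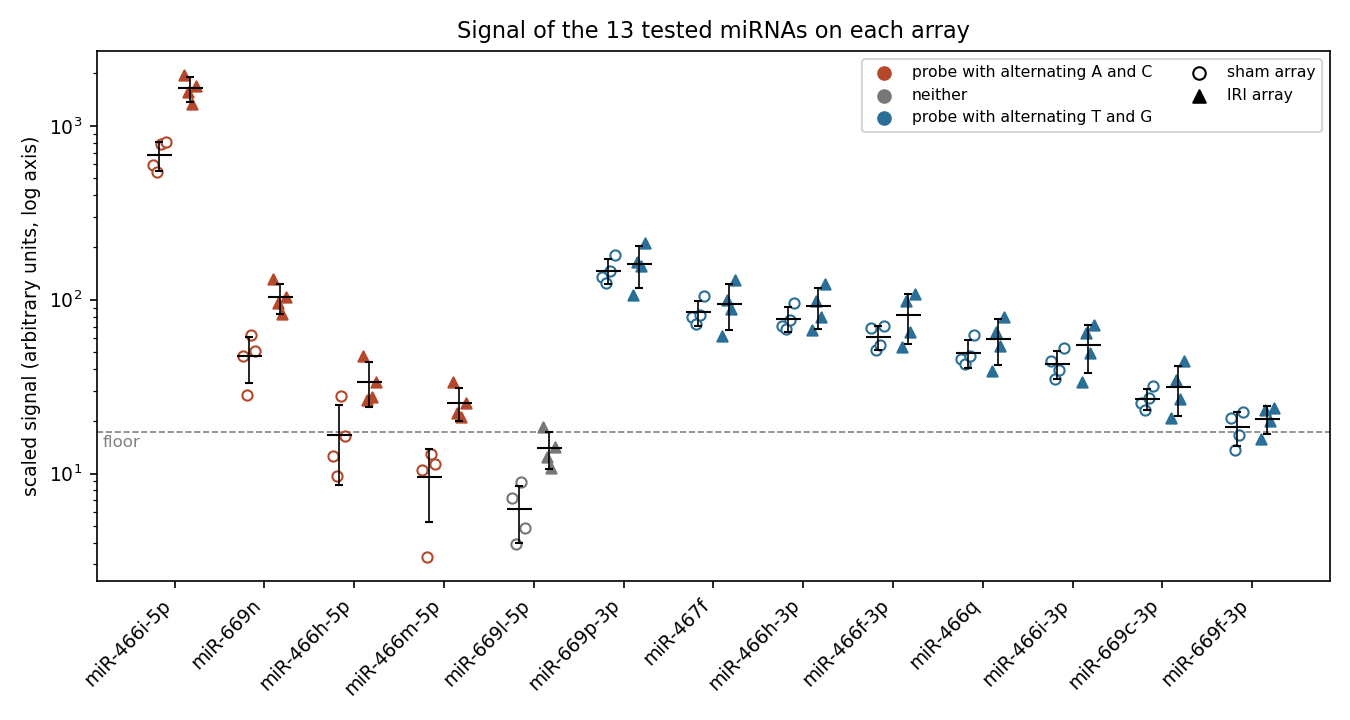
Scaled signal (arbitrary units, log axis) of the 13 tested members on each of 4 sham arrays (open circles) and 4 IRI arrays (filled triangles), with the mean and SD in black and the floor of 17.3 as a dashed line. For miR-466i-5p the IRI arrays lie between 1339 and 1964 and the sham arrays between 545 and 803, while the groups overlap for each of the 8 members with TG probes.

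The member with the largest change, miR-466i-5p, is the 5p product of a hairpin within Cdk13, and its probes consist of the repeat alone. Its scaled signal was 598, 545, 781 and 803 on sham arrays 1, 2, 3 and 6 (682 ± 129, SD, n = 4) and 1964, 1559, 1339 and 1704 on IRI arrays 1, 2, 3 and 18 (1641 ± 262, SD, n = 4). All IRI arrays exceeded all sham arrays. The rise was 2.42-fold, or 1.27 ± 0.17 (SE) on the log2 scale, with a limma adjusted p of 0.00104. Both of its probes were higher on every IRI array than on any sham array: the means were 304 in sham and 728 in IRI for the 15-base probe, and 378 and 913 for the 16-base probe.

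The miR-669n entry gave 47.2, 28.4, 62.6 and 50.7 on sham arrays 1, 2, 3 and 6 (47.2 ± 14.2, SD, n = 4) and 131, 95.8, 82.5 and 104 on IRI arrays 1, 2, 3 and 18 (103 ± 20.6, SD, n = 4). The groups did not overlap, and sham array 2 was the lowest. The rise was 2.25-fold, 1.17 ± 0.25 (SE) on the log2 scale, with a limma adjusted p of 0.0067. With normexp background correction the log2 change was 0.30 (limma adjusted p 0.0435). The call was lost with no filter on dim miRNAs (limma adjusted p 0.0798) and with the replicate number as a block (limma adjusted p 0.0775). The entry was detected on all 8 arrays and well above background on 3 of the 4 sham arrays.

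For miR-466h-5p, a 5p product from within Sfmbt2, scaled signals were 12.6, 9.73, 28.1 and 16.4 on sham arrays 1, 2, 3 and 6 and 47.7, 26.4, 27.4 and 33.8 on IRI arrays 1, 2, 3 and 18. It was detected on 0 sham and 4 IRI arrays, with a probe well above background on 1 of the latter, and sham array 3 lay above IRI arrays 2 and 3. The fitted log2 change was 0.75 ± 0.24 (SE) with a limma adjusted p of 0.0293. Since sham gave no signal well above background, the size is given as at least 1.29-fold at these settings. That bound sets the mean of the IRI arrays against, for each sham array, the higher of its own signal and the lowest signal of any entry well above background. The call was lost when any of 5 arrays was left out: the limma adjusted p was 0.0716 without sham array 1, 0.0658 without sham array 2, 0.0526 without sham array 6, 0.0557 without IRI array 1 and 0.0725 without IRI array 18. The log2 change was 0.21 with the scanner software's total gene signal and 0.12 with the floor doubled, both under that bound, and it turned to -0.11 with normexp background correction.

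The signal of miR-466m-5p was 10.5, 3.3, 12.9 and 11.4 on sham arrays 1, 2, 3 and 6 and 33.4, 22.2, 21.1 and 25.5 on IRI arrays 1, 2, 3 and 18. It too was detected on 0 sham and 4 IRI arrays, with a probe well above background on 3 of the latter, and the groups did not overlap. The fitted log2 change was 0.54 ± 0.14 (SE) with a limma adjusted p of 0.0132, and no fold is given because its lower bound, taken as for miR-466h-5p, is under 1. The size rests on the floor: the log2 change was 1.57 with the floor at 1 and 0.00 with the floor doubled (limma adjusted p 0.0149 and 1). The call was also lost with no scaling between arrays (limma adjusted p 0.0504), with no filter (0.126) and with the replicate number as a block (0.106). With normexp the change was -0.02. The call was kept in the 8 fits that left out single arrays. With values under the floor raised to it, 3 of the 13 tested members (miR-466i-5p, miR-669n and miR-466m-5p) had every IRI array above every sham array, as did 40 of all 379 miRNAs (10.6%).

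For the entry with neither set of letters, miR-669l-5p, scaled signals were 7.24, 3.95, 8.92 and 4.87 on sham arrays 1, 2, 3 and 6 and 18.4, 12.4, 10.8 and 14.2 on IRI arrays 1, 2, 3 and 18. These do not overlap as measured, but 4 sham and 3 IRI values lie under the floor. The fitted log2 change was therefore 0.02 ± 0.05 (SE), with a limma adjusted p of 0.711. With the floor lowered to 1 it was called higher, with a log2 change of 1.20 and a limma adjusted p of 0.00865. With the scanner software's total gene signal it was called too (log2 change 1.43, limma adjusted p 0.000387). The same held in the authors' deposited table, taken to log2 (5.74, limma adjusted p 4.33e-07).

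The 8 members with TG probes had log2 changes from 0.10 to 0.36 with a median of 0.20, and 0 passed the threshold in limma, with 0 at an unadjusted p below 0.05. Among them, miR-669p-3p, a 3p product from within Sfmbt2, gave 135, 125, 147 and 180 on sham arrays 1, 2, 3 and 6 and 107, 165, 156 and 213 on IRI arrays 1, 2, 3 and 18. The groups overlapped, and IRI array 1 was the lowest of all 8. Its log2 change was 0.10 ± 0.21 (SE), with a limma adjusted p of 0.704.

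The entry miR-467f, from within Fxr2, gave 79.3, 72.7, 81.6 and 105 on sham arrays 1, 2, 3 and 6 and 61.6, 99.4, 88 and 129 on IRI arrays 1, 2, 3 and 18. Its log2 change was 0.12 ± 0.22 (SE) with a limma adjusted p of 0.656. IRI array 1 was again the lowest of all 8 and IRI array 18 the highest.

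The 3p product of the miR-466h hairpin, whose 5p product was called, gave 70.6, 68.1, 76.3 and 95.8 on sham arrays 1, 2, 3 and 6 and 66.6, 98.7, 79.5 and 123 on IRI arrays 1, 2, 3 and 18. Its log2 change was 0.22 ± 0.20 (SE), with a limma adjusted p of 0.393. The groups overlapped.

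For miR-466f-3p the values were 68.7, 51.3, 54.7 and 70.4 on sham arrays 1, 2, 3 and 6 and 53.7, 98.6, 65 and 108 on IRI arrays 1, 2, 3 and 18. This was the largest change among the TG probes, 0.36 ± 0.24 (SE) on the log2 scale, with a limma adjusted p of 0.242. IRI arrays 2 and 18 lay above all sham arrays and IRI arrays 1 and 3 within their range.

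For miR-466q, within Tnik, the values were 45.6, 42.4, 47.6 and 62.3 on sham arrays 1, 2, 3 and 6 and 38.9, 65.2, 54.5 and 79.9 on IRI arrays 1, 2, 3 and 18. The log2 change was 0.24 ± 0.23 (SE), with a limma adjusted p of 0.408. The groups overlapped, with IRI array 1 the lowest of all 8.

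The other tested 3p products from within Sfmbt2 were close to the floor. The entry miR-669c-3p gave 25.3, 23.2, 27.1 and 31.7 on sham arrays 1, 2, 3 and 6 and 20.8, 34.4, 26.8 and 44.1 on IRI arrays 1, 2, 3 and 18, a log2 change of 0.19 ± 0.23 (SE) with a limma adjusted p of 0.496. The entry miR-669f-3p gave 21, 13.7, 16.6 and 22.5 on sham and 15.7, 23.2, 20.1 and 23.9 on IRI arrays in the same order, a log2 change of 0.11 ± 0.14 (SE) with a limma adjusted p of 0.5. In the authors' deposited table, taken to log2, miR-669f-3p was called higher, with a change of 3.46 and a limma adjusted p of 0.029, the one call among the TG members there. Both overlapped between groups, and miR-669f-3p was detected on 1 sham and 4 IRI arrays.

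**Figure D3:**
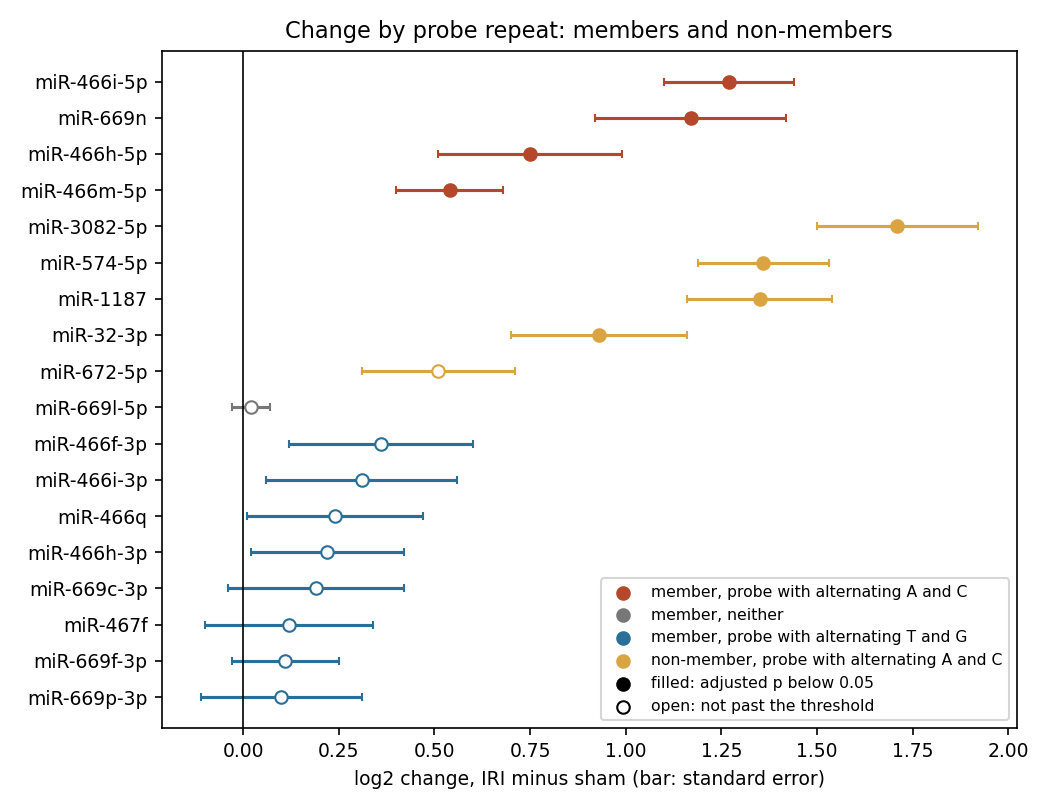
Log2 change in scaled signal, IRI minus sham, with its standard error, for the 13 tested members and for 5 tested miRNAs outside the families whose probes also hold ACACACA. Filled points have a limma adjusted p below 0.05. The 4 members with AC probes range from 0.54 to 1.27 (2 of them, miR-466h-5p and miR-466m-5p, fall to -0.11 and -0.02 with normexp), and the 8 with TG probes from 0.10 to 0.36.

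Both arms of the miR-466i hairpin have a tested entry, the 5p entry with AC probes and the 3p entry with TG probes. The 3p product gave 44.5, 34.8, 39.3 and 53 on sham arrays 1, 2, 3 and 6 and 33.4, 64.5, 49.6 and 71.1 on IRI arrays 1, 2, 3 and 18, a log2 change of 0.31 ± 0.25 (SE) with a limma adjusted p of 0.332. The groups overlapped. Without IRI array 1 the change was 0.53 with an adjusted p of 0.0492, so that one array decided this call.

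The ratio of the arms within an array does not depend on the scaling between arrays, except where the floor applies. For miR-466i, log2 of 5p over 3p signal was 3.75, 3.97, 4.31 and 3.92 on sham arrays 1, 2, 3 and 6 (3.99 ± 0.24, SD, n = 4) and 5.88, 4.59, 4.76 and 4.58 on IRI arrays 1, 2, 3 and 18 (4.95 ± 0.62, SD, n = 4). All IRI arrays lay above all sham arrays, by 0.96 on average. The two-sided exact permutation test gave p = 0.0286, the smallest that 4 against 4 allows, and 0.0572 after Benjamini-Hochberg adjustment over the 2 hairpins compared. For miR-466h the 5p product was detected on 0 sham arrays and 3 of its 4 sham values were raised to the floor. The ratio in sham, -1.98 ± 0.42 (SD, n = 4), is therefore an upper bound in those arrays and no measured size, against -1.44 ± 0.66 in IRI (SD, n = 4). On these values the exact permutation p was 0.2, also 0.2 after adjustment. These comparisons of arms were chosen after the values were seen. They compare the signals of array entries, and which RNA bound each probe was not tested.

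By arm name, 25 members are 5p, 26 are 3p and 10 carry no arm. Of these, 9, 6 and 4 were detected, and 4, 6 and 3 were tested, of which 3, 0 and 1 rose. The arm and the letters go together: the tested 5p entries are the AC members miR-466h-5p, miR-466i-5p and miR-466m-5p with miR-669l-5p, and all 6 tested 3p entries have TG probes. Among the tested members with a named arm and either set of letters, arm and letters therefore cannot be told apart. By position, of the 51 entries with all copies inside, 13 were detected, 7 tested and 2 rose, and of the 8 with none inside, 5 were detected, 5 tested and 2 rose. Those counted as outside include miR-669n by its RefSeq gene, although the signal of its array entry cannot be assigned to one miRNA.

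The order of the arrays was much the same within each probe set. In IRI, all 8 TG members had the order array 18 highest, then 2, 3 and 1. All 4 AC members were highest on IRI array 1, and 3 of them had the order 1, 18, 2 and 3, as did miR-669l-5p, which holds neither set of 7 letters. Among sham arrays, array 2 was the lowest for all 12, and array 6 was the highest for all 8 TG members. In log2 units relative to each member's own sham mean, the median over the 4 AC members was 1.41, 0.76, 0.68 and 0.99 on IRI arrays 1, 2, 3 and 18, and over the 8 TG members -0.34, 0.36, 0.08 and 0.69. The sets were thus farthest apart on IRI array 1 and nearest on IRI array 18. Without IRI array 1 the TG median was 0.36, and without IRI array 18 it was 0.06.

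**Figure D4:**
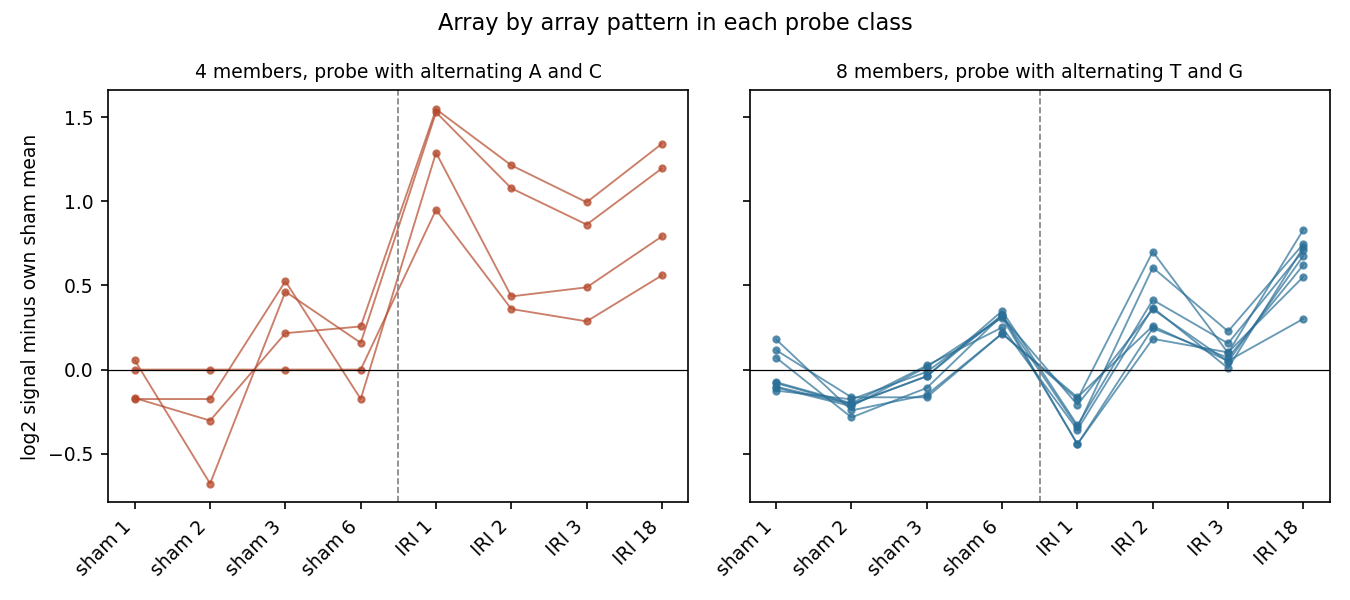
Log2 scaled signal of each tested member minus its own sham mean, by array, for the 4 members with AC probes (left) and the 8 with TG probes (right). Each line is 1 member. On IRI array 1 the AC median is 1.41 and the TG median -0.34, and on IRI array 18 they are 0.99 and 0.69.

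Members with the same repeat hold overlapping target letters, so they are not independent readings, and which RNA bound each probe was not tested. Other measurements also stood high on IRI array 1: among IRI arrays, 7 of 8 summed lists of cell type markers were highest there, kidney tubule, nervous system and placental markers among them. Some of these lists carry little signal: the 4 pancreas markers were detected on no array, and the liver list is 1 untested miRNA. The placental sum was 73.1 on sham array 3, against 73.5 on IRI array 1. IRI array 1 had the most detected miRNAs of all arrays (447), and the summed signal of 3 red blood cell miRNAs (miR-451a, miR-144-3p and miR-486a-5p) was highest there (4087, against 2940 to 3322 on the other IRI arrays and 43 to 902 on sham arrays), as was that of 5 leukocyte miRNAs (1115, against 764 to 1023 and 569 to 731). All 3 red blood cell miRNAs and 1 of the 5 leukocyte miRNAs rose in IRI. The 7 kidney tubule miRNAs were detected on all 8 arrays and all 7 were lower, with sums of 24325 to 27855 in sham and 17838 to 20759 in IRI. Of 8 markers of pluripotent and placental cells, where this cluster is best known, 2 were detected on any array and 0 were tested. In whole kidney, fewer cells of a type and less RNA per cell cannot be told apart, and the part of these cells in the members' changes was not tested.

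The same 7 letters occur outside the families. Of 9 other entries with ACACACA in a probe, 7 were detected and 5 tested, and 4 of the 5 rose. Mature sequences of the 3 with the largest rises are shown with the seed in capitals, because they carry the alternating letters at different places.
miR-3082-5p: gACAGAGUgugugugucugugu
miR-574-5p: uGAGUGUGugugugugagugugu
miR-1187: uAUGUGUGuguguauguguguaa

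Their log2 changes were 1.71 for miR-3082-5p, 1.36 for miR-574-5p and 1.35 for miR-1187, with limma adjusted p-values of 0.000836, 0.00104 and 0.00121. The change for miR-32-3p was 0.93 (limma adjusted p 0.0117), and that for miR-672-5p was 0.51 and missed the threshold (limma adjusted p 0.0667). Their genes lie outside Sfmbt2, on chromosomes 4, 5, 17 and X. Over the whole array, 8 of the 9 tested entries with AC probes were higher and 0 of the 8 with TG probes, against 46 of 379 (12.1%) in all. Several of the AC entries, miR-466h-5p, miR-466m-5p, miR-32-3p and miR-672-5p, were not detected on every sham array and entered the fit through IRI. Among entries detected on all 8 arrays, 5 of 5 with AC probes were called higher and 0 of 7 with TG probes. In a fit of the 317 entries detected on all 8 arrays alone, 31 were higher. For the 4 members the log2 changes of 0.54 to 1.27 fall within or near the range of the 5 others, 0.51 to 1.71.

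Probes of one member that differ only in length gave different signals. The 4 probes of miR-466f-3p add 1 base at a time from 14 to 17 bases.
14 bases: gtgtgtaTGTGTGT
15 bases: gtgtgtaTGTGTGTG
16 bases: gtgtgtaTGTGTGTGT
17 bases: gtgtgtaTGTGTGTGTG

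Their mean scaled signals were 0.279, 8.37, 18.9 and 33.7 in sham and 1.07, 10.8, 23.1 and 46.1 in IRI, in order of length. The 4 probes of miR-669p-3p, whose repeat is whole in each of them, gave 35.2, 34.6, 36.2 and 40.6 in sham and 35.9, 38.1, 40.8 and 45.4 in IRI from 16 to 19 bases. For the AC member miR-466h-5p the 19-base probe gave 6.8 in sham and 14.5 in IRI and the 16-base probe 3.03 and 5.53. Signals of different probes are therefore not on one scale of abundance, and only the change of each probe set between groups is read here.

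**Figure D5:**
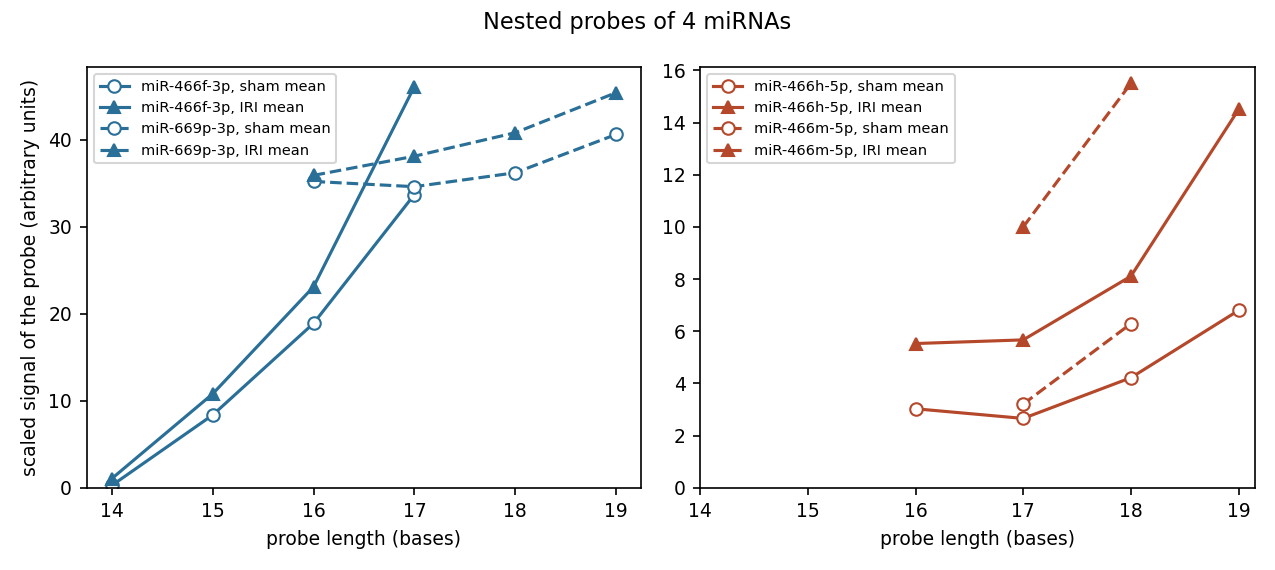
Mean scaled signal (arbitrary units, linear axes from 0, n = 4 arrays per point, no error bars) of each probe against its length for miR-466f-3p and miR-669p-3p (left) and for miR-466h-5p and miR-466m-5p (right), in sham (open circles) and IRI (triangles). The signal of miR-466f-3p rises from 0.279 at 14 bases to 33.7 at 17 bases in sham, while that of miR-669p-3p stays between 34.6 and 40.6.

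Each slide column held 1 array of either group, which gives 4 side-by-side differences, a comparison chosen after the values were seen. For miR-466i-5p the IRI array was higher in 4 of 4 columns, by 0.78 to 1.72 on the log2 scale. The same held for miR-669n (0.40 to 1.76) and miR-466m-5p (0.28 to 0.95), and miR-466h-5p was higher in 3 of 4. With slide column as a block, the miR-466h-5p call was lost (limma adjusted p 0.0629). The TG members were higher in 2 or 3 of the 4 columns, and all 8 were lower in the column that holds sham array 1 and IRI array 1, by values from -0.41 to -0.08.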

How the data were processed

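Total RNA from 30 mg of kidney, 100 ng per array, was labelled with Cy3 and hybridised to 1 array per sample, per the labels' protocols. The deposited scanner files hold spot intensity. Per the file headers, Agilent Feature Extraction 12.0.3.1 had subtracted the background and arrays were not scaled to each other. In the authors' deposited value table each miRNA has a linear ratio, with no source used here saying how it was made. Over 317 entries it matched the scanner software's gene signals up to a factor per array and per entry, with column medians from 0.646 to 1.3, and its scaling and centring stay unknown. It served as an alternative only.

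Outlier spots by the software's flags, 1422 to 1560 on an array, were dropped, and 0 were saturated. Processed signals were averaged over spots of a probe, summed over the 1 to 4 probes of a miRNA and divided by the array's 75th percentile among the 317 miRNAs that all 8 arrays detected. Values under 17.3, the 5th percentile over detected miRNAs, were raised to it before log2. The 379 miRNAs detected on all 4 arrays of a group were fitted with lmFit and eBayes of limma 3.58.1 under R 4.3.3, group being the sole term. Tests were two-sided, with Benjamini-Hochberg adjusted p-values called below 0.05. Exact permutation tests used scipy 1.17.1. Every member detected on all 4 arrays of a group is named with its values, partly detected ones by detection, and the rest by count. Members, lists and probe letters were chosen with earlier results of these data known. The number of arrays limits the precision.

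Alternatives covered scaling, background, the value per miRNA, filter, floor, variance model, slide column, replicate number and leaving out each array. Probe places are those of the array annotation (mm9), and mature sequences are RefSeq's (GRCm38.p6).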

Additional observations from a re-analysis of the deposited data

How the results depend on the processing

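The rise of miR-466i-5p was called in all 24 other settings tried, with log2 changes from 1.17 to 1.60. The rise of miR-669n was lost in 2 of 24: with no filter on dim miRNAs (limma adjusted p 0.0798) and with the replicate number as a block (0.0775). For miR-466h-5p the call went in 11 and the sign reversed in 1 of 23 settings, and for miR-466m-5p it went in 4 and was reversed in 1 of 23. The entry miR-669l-5p, not called in the report, was called higher in 3 of 23 settings and not in the other 20. The count of tested members higher in IRI, 4 in the report, was 2 with normexp, 2 over miRNAs detected on all 8 arrays, 1 with no filter and 2 with the floor doubled. It was 6 with the authors' value table, 5 with the floor at 1, and 3 to 4 when each array was left out in turn. The count of members lower stayed at 0 in every setting run. The difference in members detected per array, 6.5, was 3 by the stricter rule and 5.92 to 7.25 without single arrays. The cause of these changes was not tested, except that the restriction to miRNAs detected on all 8 arrays leaves out miR-466h-5p and miR-466m-5p.

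Signs turned as follows. With normexp the log2 changes were -0.08 for miR-466f-3p, -0.02 for miR-466h-3p, -0.11 for miR-466h-5p, -0.07 for miR-466i-3p, -0.02 for miR-466m-5p, -0.06 for miR-466q, -0.05 for miR-467f, -0.13 for miR-669c-3p, -0.15 for miR-669f-3p and -0.06 for miR-669p-3p. For miR-669p-3p the change was also -0.01 with the percentile taken over all miRNAs and -0.01 with quantile normalization. When single arrays were left out it ran from -0.05 (without IRI array 18) to 0.28 (without IRI array 1), and that of miR-467f from -0.04 to 0.31 without the same arrays. Over all miRNAs, normexp, with its offset of 50 added to each spot, gave 18 calls higher and 159 lower.

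Groups share replicate numbers 1, 2 and 3 in the titles. Deviations from the group means of same-numbered arrays correlated at -0.16, -0.20 and 0.24 over the tested miRNAs. Differently numbered arrays gave values from -0.35 to 0.50, so these correlations cannot decide whether the numbers pair the samples. Same-numbered arrays also share a slide column. With the replicate block, 1 tested member was higher, and over all miRNAs 17 were higher and 50 lower. Arrays whose number the other group lacks formed blocks of their own in that fit. They therefore added nothing to its estimated change, so fewer arrays stand behind it.

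Signal over background limits the dim members: miR-466h-5p was well above it on 1 IRI array and on 0 sham arrays.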
